A study of Mus musculus with 15 samples.

Results

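The interferon-stimulated genes examined here are 47 genes that cells transcribe after interferon signalling, taken by gene symbol from the 33340 genes of a raw count table of whole mouse lung. They were selected by symbol, from a list made with earlier results of these data known, and all 47 passed the filter on low counts that left 17457 genes for testing. The libraries were made from polyA RNA of the lungs of male C57BL/6 mice aged 10 to 12 weeks. Mice received bleomycin at 5 U/kg into the trachea, and lungs were collected at day 7 (4 libraries), day 14 (4) and day 21 (3). The 4 day 0 libraries are titled as controls. These numbers follow the titles, whereas the series' design text gives 3 replicates for every time. They share strain and tissue with the later groups, and the treatment label of day 0 replicates 1 to 3 reads none, whereas that of replicate 4 names bleomycin. Replicate 4 was kept at day 0 by its title, and results that depend on it are given without it. Whether a library came from a single animal is not given in the sources used here, so the p-values measure the spread between libraries labelled as separate replicates.

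Bleomycin breaks DNA and is used in rodents to produce acute lung injury followed by fibrosis. Type I and type III interferons signal through JAK1 and TYK2 to a complex that holds STAT2 and IRF9 and binds the interferon-stimulated response element (ISRE), whereas interferon gamma signals through JAK1 and JAK2 and acts on genes with a gamma-activated site (GAS). The genes downstream include antiviral effectors, sensors of viral RNA and DNA, GTPases that attack intracellular pathogens, and factors that amplify or end the response.

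Upstream sequence of several members is shown because it carries the elements through which interferon acts. RefSeq promoter windows on GRCm38 were matched by symbol for 35 of the 47 members. The ISRE was searched as GAAANNGAAA, or TTTCNNTTTC on the other strand, and GAS as TTCNNNGAA, which reads the same on both strands, within 250 bases before the annotated start. An ISRE match was found for 16 of the 35 members (45.7%) and for 936 of 27025 genes with a window (3.46%). A GAS match was found for 8 of the 35 members (22.9%) and for 2197 of all genes (8.13%). A match describes these letters only and says nothing of whether a factor was bound. The stretches below run 5′ to 3′ in the direction of the gene, lie before its start, and have the matched element in capitals.
Isg15 (chr4:156200856-156200915, minus strand, 3 overlapping ISRE matches): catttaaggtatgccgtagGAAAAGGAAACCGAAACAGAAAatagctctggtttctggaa
Oas1a (chr5:120907526-120907585, minus strand, 2 overlapping ISRE matches): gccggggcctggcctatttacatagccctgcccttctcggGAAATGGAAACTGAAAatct
Ifit1 (chr19:34640769-34640828, plus strand, 2 ISRE matches): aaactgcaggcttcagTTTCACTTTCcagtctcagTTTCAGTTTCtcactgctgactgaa
Ifit3 (chr19:34583365-34583424, plus strand, 2 ISRE matches): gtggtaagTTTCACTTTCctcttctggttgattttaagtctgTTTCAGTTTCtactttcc
Ifit3b (chr19:34607761-34607820, plus strand, 2 ISRE matches): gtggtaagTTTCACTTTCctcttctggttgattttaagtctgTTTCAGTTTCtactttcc
Gbp7 (chr3:142530258-142530317, plus strand, 1 ISRE match): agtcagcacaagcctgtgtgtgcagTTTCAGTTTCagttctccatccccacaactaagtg
Irf1 (chr11:53769898-53769957, plus strand, 1 GAS match): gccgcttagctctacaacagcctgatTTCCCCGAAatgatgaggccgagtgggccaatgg

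The stretches of Ifit3 and Ifit3b, neighbouring genes on chromosome 19, are identical over their whole length. Among the members that changed in at least 1 comparison with day 0, Isg15, Oas1a, Ifit1, Gbp2 and Gbp7 had an ISRE match and Irf1 a GAS match. Oas1a and Gbp7 also had a GAS match, outside the stretches shown for them. Lgals3bp, Irf7, Cmpk2 and Ifi35 had a window without either element.

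Total counts ranged from 15652008 to 18020661 per library. Mitochondrial transcripts took 2.28 and 2.31% of counts in day 0 replicates 1 and 2 but 4.22 and 4.04% in replicates 3 and 4, between 2.03 and 2.15% at day 7, and between 2.1 and 4.14% later. No epithelial or endothelial marker of lung was at 0 at any day. The 5 endothelial markers had negative log2 fold changes at each time, with medians of −0.44, −0.54 and −0.53. Of them, 1, 2 and 1 were called lower at days 7, 14 and 21. Summed over 6 markers of lung epithelium, the level was 52599 to 67964 CPM (counts scaled to a common library size) at day 0 and 9639 to 14172 CPM at day 21, mostly Scgb1a1 and Sftpc at day 0. Of the 6 markers, 1 was called lower at day 7, 5 at day 14 and 4 at day 21, and Ager was called at no time. Summed over 8 markers of recruited monocytes and macrophages, the level was 145 to 231 CPM at day 0, 491 to 858 CPM at day 7, 602 to 1384 CPM at day 14 and 659 to 1058 CPM at day 21, and 5 of the 8 markers, C1qa and C1qb among them, were called higher at each time. C1qa and C1qb made up most of the later sums, and Ly6c2, Ccr2 and Cx3cr1 were called at no time. Day 0 replicate 4, the library with the deviating label, held 145 CPM of these markers, the lowest of all 15 libraries, next to 146 CPM in day 0 replicate 3. It also had the lowest day 0 sums of epithelial, neutrophil (390 CPM), T cell (19.2), natural killer cell (25.2) and B cell (86.6) markers. Its sums of alveolar macrophage (1072 CPM) and plasmacytoid dendritic cell (251 CPM) markers were the highest of day 0. Whether it had received bleomycin was not tested.

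Across the time course most interferon-stimulated genes did not pass the test, and those that did went in different directions. A member was called changed when the adjusted p of edgeR's quasi-likelihood test was under 0.05, with Benjamini-Hochberg adjustment over all 17457 genes, and the fold change exceeded 1.5. By this rule 8 of the 47 members were higher than day 0 in at least 1 comparison, 5 were lower in at least 1, none was both, and 34 were called in no comparison. Of all genes tested, 16.4% were higher in at least 1 comparison, 17.1% lower in at least 1 and 66.5% called in none, so the members' shares called lay near or below those of all genes. Lgals3bp and Iigp1 were called higher at all 3 times. In whole lung, fewer cells of a type and less RNA per cell cannot be told apart, and this holds for every value below.

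At day 7, 7 of 47 members (14.9%) were called higher, against 8.78% of all genes tested. These were Lgals3bp, Isg15, Ifit1, Zbp1, Iigp1, Oas1a and Irf7. No member was called lower by edgeR, and none by DESeq2, against 7.36% of all genes; 9 members were higher and 1 lower at an unadjusted p under 0.05, which 38.2% of all genes passed in either direction. The members had a median log2 fold change of 0.11, against 0.01 over all genes. In 8 members (17%) every day 7 library lay above every day 0 library, a separation seen in 17.6% of all genes, and in 2 (Samd9l and Gbp7) every one lay below, against 13.2%. Leaving out day 0 replicate 4 lowered the number called higher to 3, and adding the mitochondrial share to the model lowered it to 4. The calls lost without that library, those of Irf7, Ifit1, Oas1a and Isg15, were also lost without day 7 replicate 1.

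At day 14, 5 members (10.6%) were called higher, against 12% of all genes, and all of them were among the 7 of day 7. Gbp7 (2.13% of the members) was called lower, against 11.2% of all genes. The median log2 fold change was −0.07, with 0.02 over all genes. In 3 members (Zbp1, Oas1a and Lgals3bp; 6.38%) every day 14 library lay above every day 0 library, against 16.8% of all genes, and in 2 (Irf1 and Gbp7; 4.26%) every one lay below, against 14.4%. The median ranged from −0.25 without day 14 replicate 4 to 0.03 without day 14 replicate 1, so its sign rested on single libraries. Without day 0 replicate 4 the number called higher was 2. The calls then lost, those of Zbp1, Oas1a and Isg15, were also lost without day 14 replicate 4. Restricted to libraries with a mitochondrial share over 3.5%, 3 members were called higher and none lower.

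At day 21, 3 members (6.38%) were called higher, namely Lgals3bp, Mx1 and Iigp1, against 12.4% of all genes. A further 4 members (8.51%) were called lower, namely Cmpk2, Irf1, Gbp2 and Ifi35, against 10.1% of all genes. In 4 members (8.51%) every day 21 library lay above every day 0 library, against 19.4% of all genes. The median log2 fold change was −0.23, with 0.02 over all genes, and 35 of the 47 values were negative. The median ranged from −0.36 without day 21 replicate 3 to −0.09 without day 21 replicate 1. In 10 members (21.3%) every day 21 library lay below every day 0 library, a separation seen in 16% of all genes. Without day 21 replicate 1 the number called lower was 2, and without day 21 replicate 3 it was 7. All comparisons with day 0 share the same 4 control libraries.

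**Figure D1:**
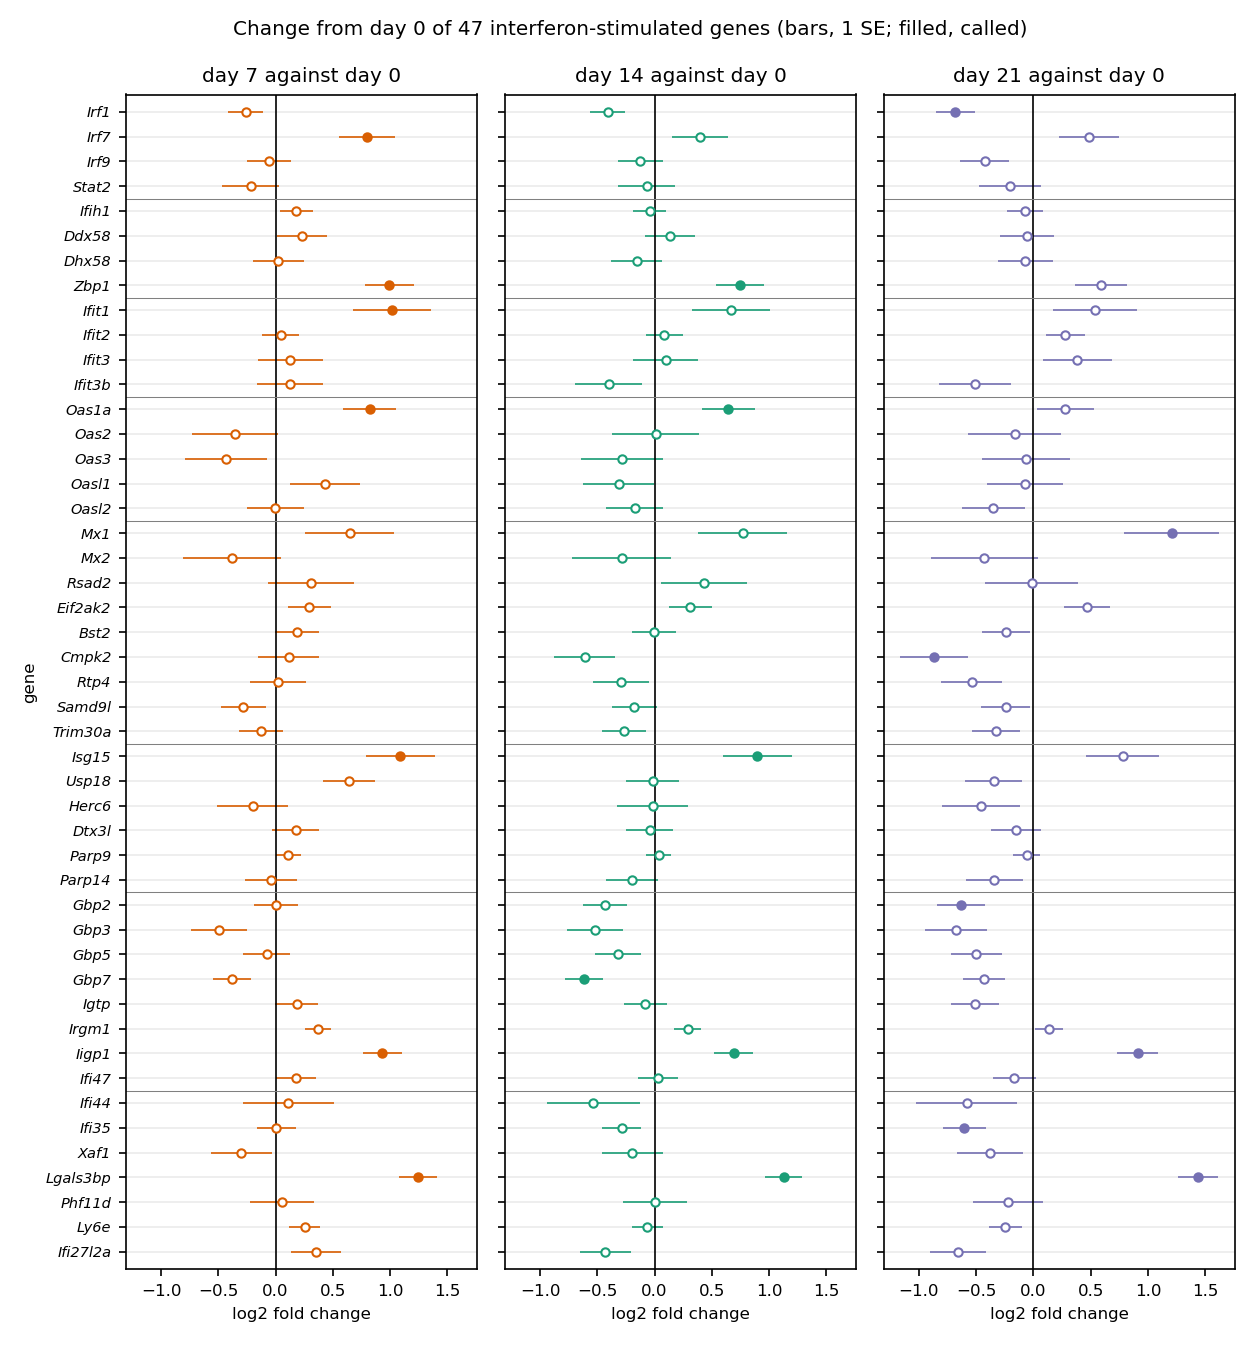
Log2 fold change from day 0 (horizontal axis) of the 47 members (vertical axis, grouped by role) at day 7, day 14 and day 21, with bars of 1 standard error and filled points for members called changed. At day 7 the 7 filled points lie to the right of 0, whereas at day 21 there are 3 to the right and 4 to the left.

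Among the transcription factors, Irf7, which amplifies interferon production, rose at day 7 and Irf1, an activator induced mainly by interferon gamma, fell at day 21. Irf7 measured 25.6, 19.0, 35.4 and 19.0 CPM at day 0, 41.9, 41.0, 35.1 and 54.2 CPM at day 7, 20.2, 29.9, 37.1 and 42.7 CPM at day 14, and 24.7, 38.6 and 40.3 CPM at day 21. Day 0 replicate 3 lay just above the lowest day 7 library, so the groups overlapped. Irf7 was 1.74-fold higher at day 7 (log2 fold change 0.80 ± 0.24 SE, adjusted p = 0.0269), and the call was lost without day 0 replicate 1, 2 or 4 or day 7 replicate 1 or 4 (adjusted p between 0.0549 and 0.0979). Its log2 fold changes at day 14 and day 21, 0.39 and 0.48, did not pass the test.

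Irf1 measured 90.1, 87.6, 96.7 and 81.3 CPM at day 0, 84.6, 68.4, 81.0 and 62.7 CPM at day 7, 45.5, 66.7, 76.7 and 78.7 CPM at day 14, and 48.9, 61.9 and 55.6 CPM at day 21. Every library of day 14 and day 21 lay below every day 0 library. At day 7 the log2 fold change of Irf1 was −0.26 (adjusted p = 0.221). At day 14 the value was −0.41, with an adjusted p of 0.0489, but the fold change stayed within 1.5. At day 21 Irf1 fell by 0.68 ± 0.17 SE on the log2 scale (adjusted p = 0.0063), to 55.4 ± 6.51 CPM (SD, n = 3) from 88.9 ± 6.38 CPM (SD, n = 4).

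Stat2, a subunit of the ISRE-binding complex, did not pass the test at any day. It measured 67.4, 66.3, 93.3 and 75.4 CPM at day 0, 57.7, 65.4, 58.9 and 78.2 CPM at day 7, 44.2, 47.3, 98.1 and 98.9 CPM at day 14, and 47.6, 82.5 and 66.9 CPM at day 21. The 4 day 14 libraries enclosed the whole range of day 0. Irf9, the DNA-binding subunit of the same complex, had log2 fold changes of −0.06, −0.12 and −0.42 at days 7, 14 and 21, the last with an adjusted p of 0.15.

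Of the 4 sensors of nucleic acids, only Zbp1, which binds Z-form nucleic acid and can start necroptosis, was called. Zbp1 measured 8.35, 9.07, 10.0 and 6.97 CPM at day 0, 19.2, 17.5, 13.1 and 18.9 CPM at day 7, 11.4, 10.2, 15.6 and 20.5 CPM at day 14, and 10.7, 13.6 and 14.5 CPM at day 21. No library after bleomycin overlapped with day 0. Zbp1 was 1.99-fold higher at day 7 (log2 fold change 0.99 ± 0.21 SE, adjusted p = 0.00387) and 1.68-fold higher at day 14 (0.75 ± 0.21 SE, adjusted p = 0.0133). At day 21 its log2 fold change was 0.59 (adjusted p = 0.0603). The day 14 call was lost without day 0 replicate 4 (adjusted p = 0.0523) and without day 14 replicate 4, where the fold change came under 1.5 (log2 fold change 0.53), as well as with only the libraries of a mitochondrial share over 3.5% (adjusted p = 0.0963).

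Ddx58, which encodes the RNA sensor RIG-I, measured 73.8, 64.0, 66.3 and 67.1 CPM at day 0 and 83.1, 68.8, 81.2 and 84.5 CPM at day 7. At day 14 it measured 52.7, 51.6, 95.6 and 97.7 CPM, with 2 libraries below and 2 above the whole day 0 range, and at day 21 it measured 41.5, 75.3 and 78.3 CPM. Its log2 fold changes were 0.23, 0.13 and −0.06, none past the test. Ifih1, the related sensor MDA5, and Dhx58, their regulator LGP2, had log2 fold changes between −0.16 and 0.18 over the 3 times.

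**Figure D2:**
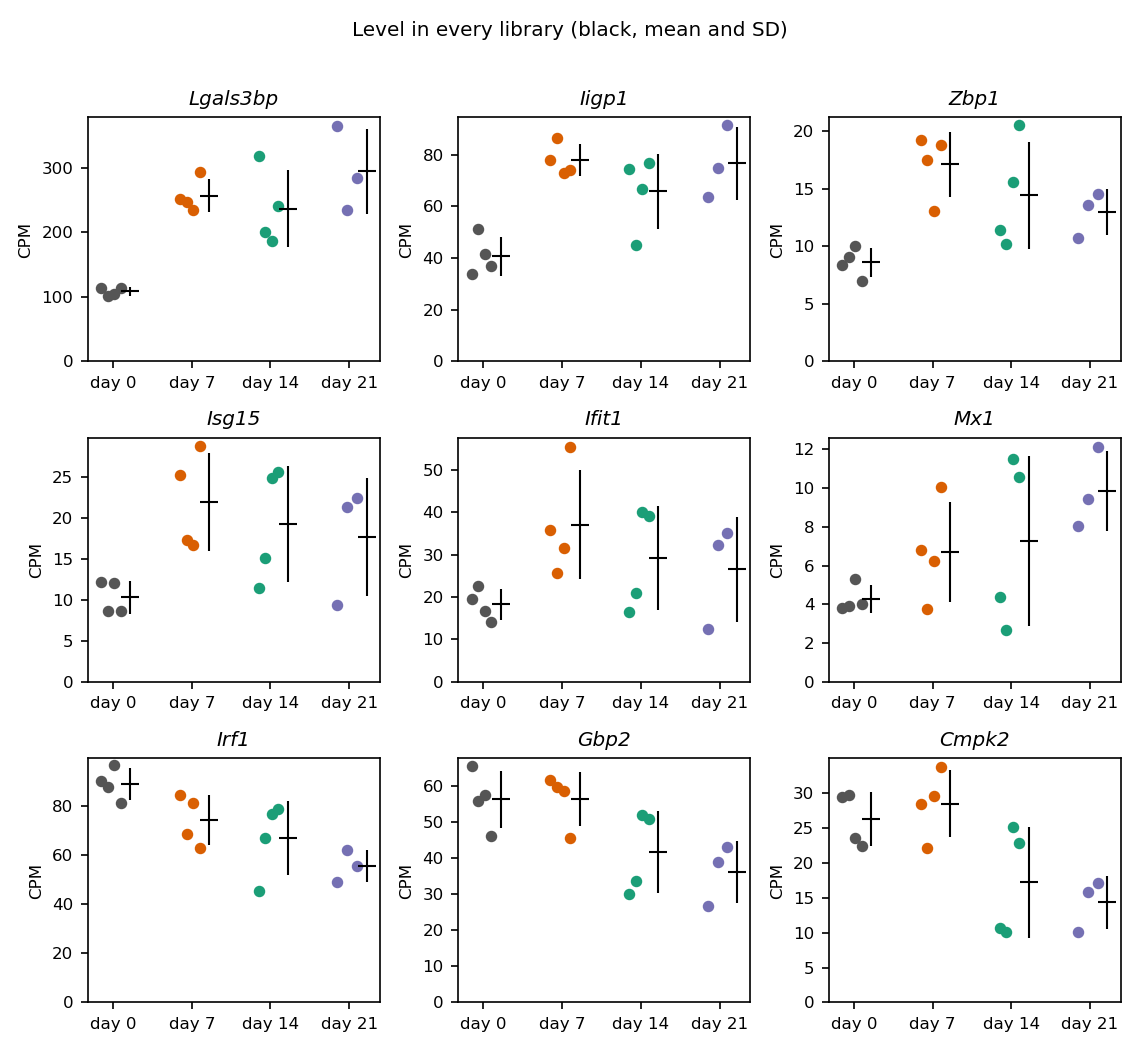
CPM (vertical axis, from 0) of 9 members at each day (horizontal axis), with a coloured point for each library and the mean and SD in black. Lgals3bp, Iigp1 and Zbp1 lie above day 0 in nearly every later library, Isg15 and Ifit1 are spread widely at day 14 and day 21, and Irf1, Gbp2 and Cmpk2 are lowest on average at day 21.

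Among the IFIT proteins, which bind foreign RNA and block its translation, Ifit1 rose at day 7 and the other 3 members did not pass the test at any day. Ifit1 measured 19.6, 22.6, 16.8 and 14.2 CPM at day 0, 35.9, 25.6, 31.6 and 55.4 CPM at day 7, 16.4, 20.9, 40.1 and 39.2 CPM at day 14, and 12.4, 32.3 and 35 CPM at day 21. All day 7 libraries lay above day 0, whereas the later groups overlapped with it. Ifit1 was 2.03-fold higher at day 7 (log2 fold change 1.02 ± 0.34 SE, adjusted p = 0.0396). This call was lost without any of day 0 replicates 1, 3 and 4 or day 7 replicates 1, 3 and 4 (adjusted p between 0.0506 and 0.123), when the mitochondrial share entered the model (adjusted p = 0.172), with limma voom (adjusted p = 0.0566) and with only the libraries of a mitochondrial share under 2.5% (adjusted p = 0.0723).

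Ifit3 measured 68.2, 49.0, 61.4 and 50.1 CPM at day 0, 57.8, 58.2, 64.8 and 69.1 CPM at day 7, 37.8, 76.1, 64.2 and 66.3 CPM at day 14, and 30.5, 106 and 86.9 CPM at day 21. Its day 21 libraries lay on both sides of the day 0 range, and its log2 fold change of 0.38 had an adjusted p of 0.37. Without day 21 replicate 1 it was called higher (0.72, adjusted p = 0.0202), and without day 21 replicate 2 the value was 0.0046. Ifit3b had −0.51 at day 21 (adjusted p = 0.244). These values are uncertain because 31.7% of the 100-base words of Ifit3 exons also occur in Ifit3b, 27.4% of those of Ifit3b occur in Ifit3, and reads that mapped to several places were excluded from the counts.

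Among the oligoadenylate synthetases, which make the activator of RNase L, Oas1a rose at day 7 and day 14 and the other 4 did not pass the test. Oas1a measured 8.29, 9.25, 10.8 and 7.64 CPM at day 0, 18.1, 11.9, 13.6 and 19.98 CPM at day 7, 10.9, 10.97, 16.6 and 17.7 CPM at day 14, and 7.92, 10.0 and 14.71 CPM at day 21. The lowest day 7 and day 14 libraries lay just above the highest day 0 library. Oas1a was 1.77-fold higher at day 7 (log2 fold change 0.82 ± 0.23 SE, adjusted p = 0.018) and 1.56-fold higher at day 14 (0.65 ± 0.23 SE, adjusted p = 0.0419). Without day 0 replicate 4 neither was called (adjusted p = 0.0642 and 0.121), and the day 7 call was also lost without day 7 replicate 1 or 4 and the day 14 call without day 0 replicate 1 or 2 or day 14 replicate 3 or 4 (adjusted p between 0.0536 and 0.118). A mitochondrial term in the model also removed both (adjusted p = 0.0696 and 0.0532), and the day 14 call was lost with limma voom (adjusted p = 0.0577) and with libraries over 3.5% (adjusted p = 0.103). Its level is uncertain, since 40.9% of the 100-base words of its exons also occur in the neighbouring Oas1g.

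Oas2, which makes longer oligoadenylates, did not pass the test. It measured 17.9, 23.7, 25.4 and 23.9 CPM at day 0, 10.9, 11.7, 15.9 and 32.7 CPM at day 7, 12.8, 10.7, 31.5 and 36.4 CPM at day 14, and 16.8, 23.0 and 21.1 CPM at day 21. The day 7 and day 14 libraries reached both below and above the day 0 range, and the log2 fold changes were −0.35, 0.01 and −0.17. Oas3, Oasl1 and Oasl2 had log2 fold changes between −0.43 and 0.43, and the smallest adjusted p among them was 0.318.

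Among the 9 other antiviral effectors, Mx1 rose and Cmpk2 fell at day 21, and no other call was made. Mx1 encodes a GTPase against influenza virus, and the C57BL/6 allele is known to lack coding exons and to give no functional protein. It measured 3.82, 3.93, 5.33 and 4.02 CPM at day 0, 6.80, 3.74, 6.26 and 10.1 CPM at day 7, 4.37, 2.68, 11.50 and 10.6 CPM at day 14, and 8.04, 9.46 and 12.1 CPM at day 21. The 3 day 21 libraries lay above all day 0 libraries, whereas day 7 and day 14 overlapped with them. Mx1 was 2.31-fold higher at day 21 (log2 fold change 1.21 ± 0.41 SE, adjusted p = 0.0372). The call was lost without day 0 replicate 1, 2 or 4 or any 1 of the 3 day 21 libraries (adjusted p between 0.0508 and 0.134). At day 14 the value of 0.77 did not pass (adjusted p = 0.143), but was called without day 14 replicate 2 (1.02, adjusted p = 0.0364).

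Cmpk2, a mitochondrial nucleotide kinase next to Rsad2 on chromosome 12, measured 29.4, 29.8, 23.6 and 22.5 CPM at day 0, 28.4, 22.2, 29.6 and 33.8 CPM at day 7, 10.7, 10.1, 25.2 and 22.9 CPM at day 14, and 10.1, 15.9 and 17.2 CPM at day 21. At day 14, replicates 1 and 2 lay far below day 0 and replicates 3 and 4 within it. Cmpk2 fell by 0.87 ± 0.30 SE on the log2 scale at day 21 (adjusted p = 0.0368), a call lost without day 0 replicate 1 or 2 or day 21 replicate 1 (adjusted p between 0.0662 and 0.124). At day 14 the value was −0.61 (adjusted p = 0.0938), and −0.85 (adjusted p = 0.0262) without day 14 replicate 3.

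Rsad2, which encodes viperin, did not pass the test at any day, and its day 0 libraries differed widely among themselves. It measured 19.9, 15.3, 6.67 and 6.92 CPM at day 0, 14.6, 12.7, 12.3 and 20.8 CPM at day 7, 13.2, 7.91, 25.1 and 19.4 CPM at day 14, and 8.47, 12.4 and 15.3 CPM at day 21. Day 0 replicates 1 and 2, which had the lower mitochondrial shares, held more Rsad2 than replicates 3 and 4, and the part of that share in the values was not tested. Bst2, which encodes the virus-tethering protein tetherin, ranged from 65.0 to 99.7 CPM at day 0 and from 48.4 to 99.96 CPM afterwards, with log2 fold changes of 0.18, −0.01 and −0.24. Eif2ak2, the RNA-activated kinase PKR, had 0.29, 0.31 and 0.47, the last with an adjusted p of 0.0924.

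Isg15, the ubiquitin-like modifier that is attached to proteins during an interferon response, rose at day 7 and day 14. It measured 12.2, 8.59, 12 and 8.59 CPM at day 0, 25.3, 17.2, 16.6 and 28.7 CPM at day 7, 11.46, 15.1, 24.9 and 25.6 CPM at day 14, and 9.40, 21.3 and 22.4 CPM at day 21. All day 7 libraries lay above day 0, whereas 1 library of day 14 and 1 of day 21 fell within it. Isg15 was 2.13-fold higher at day 7 (log2 fold change 1.09 ± 0.30 SE, adjusted p = 0.0168) and 1.86-fold higher at day 14 (0.90 ± 0.30 SE, adjusted p = 0.0316). The day 7 call was lost without day 0 replicate 4 or day 7 replicate 1 (adjusted p = 0.0587 and 0.0537), and the day 14 call without day 0 replicate 2 or 4 or day 14 replicate 3 or 4 (adjusted p between 0.0853 and 0.0918). The day 7 call was also lost with a mitochondrial term (adjusted p = 0.0625) and the day 14 call with limma voom (adjusted p = 0.0634). At day 21 its log2 fold change was 0.78 (adjusted p = 0.08), and 1.05 (adjusted p = 0.0187) without day 21 replicate 1.

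Usp18, the protease that removes ISG15 and restrains the type I receptor, measured 15.1, 13.1, 16.2 and 12.6 CPM at day 0, 22.6, 18.7, 19.1 and 28.4 CPM at day 7, 9.28, 10.8, 19.6 and 16.6 CPM at day 14, and 8.04, 13.8 and 11.7 CPM at day 21. All day 7 libraries lay above day 0, but the log2 fold change of 0.64 ± 0.23 SE just missed the threshold (adjusted p = 0.0516), and DESeq2 and limma voom placed it inside (adjusted p = 0.0407 and 0.046). Parp9, a partner of the ubiquitin ligase Dtx3l, varied little. It ranged from 41.3 to 47.1 CPM at day 0, from 42.4 to 50.6 CPM at day 7, from 38.2 to 51.7 CPM at day 14 and from 36.7 to 45.8 CPM at day 21, with log2 fold changes of 0.11, 0.04 and −0.06. Herc6, the ligase of ISG15 in mice, Dtx3l and Parp14 had log2 fold changes between −0.46 and 0.18 and did not pass the test.

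The 8 GTPases of the GBP and IRG families, which are strongly induced by interferon gamma and act on vacuoles that hold pathogens, split by gene. The median log2 fold change over the 8 was 0.09 at day 7, −0.20 at day 14 and −0.47 at day 21. Irgm1 had positive values at all 3 times, and Iigp1 rose at all 3. Iigp1 measured 33.7, 51.0, 41.4 and 36.7 CPM at day 0, 77.9, 86.3, 72.8 and 74.0 CPM at day 7, 74.4, 45.1, 66.5 and 76.9 CPM at day 14, and 63.4, 74.98 and 91.4 CPM at day 21. Day 14 replicate 2 was the single later library within the day 0 range.

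Iigp1 was 1.91-fold higher at day 7 (log2 fold change 0.93 ± 0.17 SE, adjusted p = 0.00135), 1.61-fold higher at day 14 (0.69 ± 0.17 SE, adjusted p = 0.00543) and 1.88-fold higher at day 21 (0.91 ± 0.18 SE, adjusted p = 0.00146). These calls held whichever library was left out. With only the libraries of a mitochondrial share over 3.5%, the day 14 call was lost (log2 fold change 0.67, adjusted p = 0.0659). Irgm1, an IRG protein that regulates the others, measured 39.2, 33.4, 40.1 and 32.6 CPM at day 0 and 51.4, 44.4, 42.1 and 49.9 CPM at day 7, without overlap. Its adjusted p at day 7 was 0.0295, but the fold change of 1.29 was under the threshold. It ranged from 40.1 to 51.7 CPM at day 14 and from 34.8 to 44.7 CPM at day 21.

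Gbp2 measured 65.7, 55.9, 57.4 and 46.1 CPM at day 0, 61.8, 59.7, 58.7 and 45.5 CPM at day 7, 29.9, 33.7, 52.1 and 50.8 CPM at day 14, and 26.7, 38.9 and 43.2 CPM at day 21. Day 7 lay almost wholly within the range of day 0, day 14 was split, and day 21 lay below it. Gbp2 fell by 0.63 ± 0.21 SE on the log2 scale at day 21 (adjusted p = 0.031), a call lost without day 0 replicate 1 (adjusted p = 0.0644) or day 21 replicate 1 (adjusted p = 0.11).

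Gbp7 measured 43.7, 56.2, 47.4 and 44.0 CPM at day 0, 32.6, 37.7, 36.5 and 39.7 CPM at day 7, 26.4, 21.6, 37.6 and 39.2 CPM at day 14, and 30.3, 35.3 and 40.8 CPM at day 21. Every later library lay below every day 0 library. Gbp7 was called only at day 14, where it fell by 0.62 ± 0.17 SE on the log2 scale (adjusted p = 0.0105). Without day 0 replicate 2 or day 14 replicate 1 or 2 the fold change came under 1.5, with log2 fold changes of −0.55, −0.56 and −0.50. The log2 fold changes at day 7 and day 21 were −0.38 and −0.43 (adjusted p = 0.101 and 0.0848), and without day 21 replicate 3 the latter was called (−0.59, adjusted p = 0.0491). Gbp7 shares 10% of its 100-base words with Gbp3 and a predicted gene, Gm43802, that overlaps it on the same strand.

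Igtp, an IRG protein also called Irgm3, measured 23.2, 21.4, 27.1 and 18.4 CPM at day 0 and 13.5, 16.5 and 17.3 CPM at day 21, without overlap, and ranged from 20.5 to 27.8 CPM at day 7 and from 14.1 to 27.6 CPM at day 14. Its log2 fold change of −0.51 at day 21 had an adjusted p of 0.0747, and without day 0 replicate 4 it was called lower (−0.63, adjusted p = 0.048). Gbp3 and Gbp5 had −0.68 and −0.50 at day 21 (adjusted p = 0.0705 and 0.105) and did not pass the test.

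In the last group of 7 members, Lgals3bp, which encodes a secreted galectin-binding glycoprotein, showed the largest rise of all members at each time. It measured 114, 101, 105 and 113 CPM at day 0, 252, 247, 234 and 294 CPM at day 7, 318, 201, 187 and 241 CPM at day 14, and 364, 234 and 284 CPM at day 21. All 11 later libraries lay above day 0. Lgals3bp was 2.37-fold higher at day 7 (log2 fold change 1.24 ± 0.16 SE, adjusted p = 0.000144), 2.18-fold higher at day 14 (1.13 ± 0.16 SE, adjusted p = 0.000124) and 2.71-fold higher at day 21 (1.44 ± 0.17 SE, adjusted p = 3.59e-05). These calls held whichever library was left out and in every other setting tried.

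Ifi35, which binds the factor Nmi, measured 19.7, 22.4, 25.3 and 24.2 CPM at day 0, 25.03, 17.2, 22.2 and 27.5 CPM at day 7, 12.8, 19.7, 22.5 and 20.2 CPM at day 14, and 15.3, 14.4 and 15.6 CPM at day 21. The 3 day 21 libraries lay close together below day 0. Ifi35 fell by 0.60 ± 0.19 SE on the log2 scale (adjusted p = 0.0232), and without day 0 replicate 3 the fold change came just under 1.5 (log2 fold change −0.58), as it did with the replicate number as a block (−0.54). A gene on the opposite strand, Gm11626, overlaps 16.8% of its exon bases, and the library kit does not mark strand, so their reads cannot be told apart.

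Ifi27l2a, a small mitochondrial protein gene, was the member called between day 7 and day 14. It measured 24.1, 25.3, 48.1 and 34.8 CPM at day 0, 40.4, 41.9, 34.8 and 51.9 CPM at day 7, 22.4, 19.8, 23.7 and 32.1 CPM at day 14, and 21.1, 15.6 and 26.2 CPM at day 21. Every day 14 library lay below every day 7 library, whereas the day 0 libraries overlapped with both groups. Ifi27l2a fell by 0.79 on the log2 scale from day 7 to day 14 (adjusted p = 0.0442). The call was lost without any 1 of the day 7 libraries or day 14 replicate 1, 2 or 3 (adjusted p between 0.0613 and 0.13), and with a mitochondrial term (adjusted p = 0.0637). Against day 0, its log2 fold change at day 21 was −0.66 (adjusted p = 0.0538), and it was called lower with DESeq2 (−0.68, adjusted p = 0.0289) and in 7 other alternatives. At day 7 the value was 0.35 (adjusted p = 0.256), and 0.76 (adjusted p = 0.0127) with only the libraries of a mitochondrial share under 2.5%. This was 1 of 47 members (2.13%), against 3.23% of all genes called lower between these days and 2.77% called higher. No member was called higher by edgeR or DESeq2, and at an unadjusted p under 0.05, passed by 25% of all genes in either direction, 0 members were higher and 6 lower. Only Ifi27l2a and Oasl1 had every day 14 library below every day 7 library, against 8.36% of all genes, and no member had every library above, against 7.9%.

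Ly6e, a membrane protein that restricts coronavirus entry, had the highest level of all members, at 245 CPM per kilobase of exon at day 0 against a median of 7.48 over the 47. It measured 954, 831, 987 and 932 CPM at day 0, 1249, 950.2, 1084 and 1142 CPM at day 7, 693, 882, 947 and 1019 CPM at day 14, and 693, 847 and 803 CPM at day 21. Each later group overlapped with day 0, and the log2 fold changes of 0.26, −0.07 and −0.25 did not pass the test. Bst2 and Ifi27l2a followed at 86.8 and 71.4 CPM per kilobase, and Mx1, Mx2 and Oasl1 were lowest at 1.13, 1.23 and 1.62.

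Between day 14 and day 21 no member and no other gene was called by edgeR. No member passed an unadjusted p under 0.05 in either direction, DESeq2 called none, and 9.82% of all genes passed at an unadjusted p under 0.05. The libraries of both days overlapped for all 47 members, whereas every day 21 library lay above in 3.05% and below in 2.95% of all genes.

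**Figure D3:**
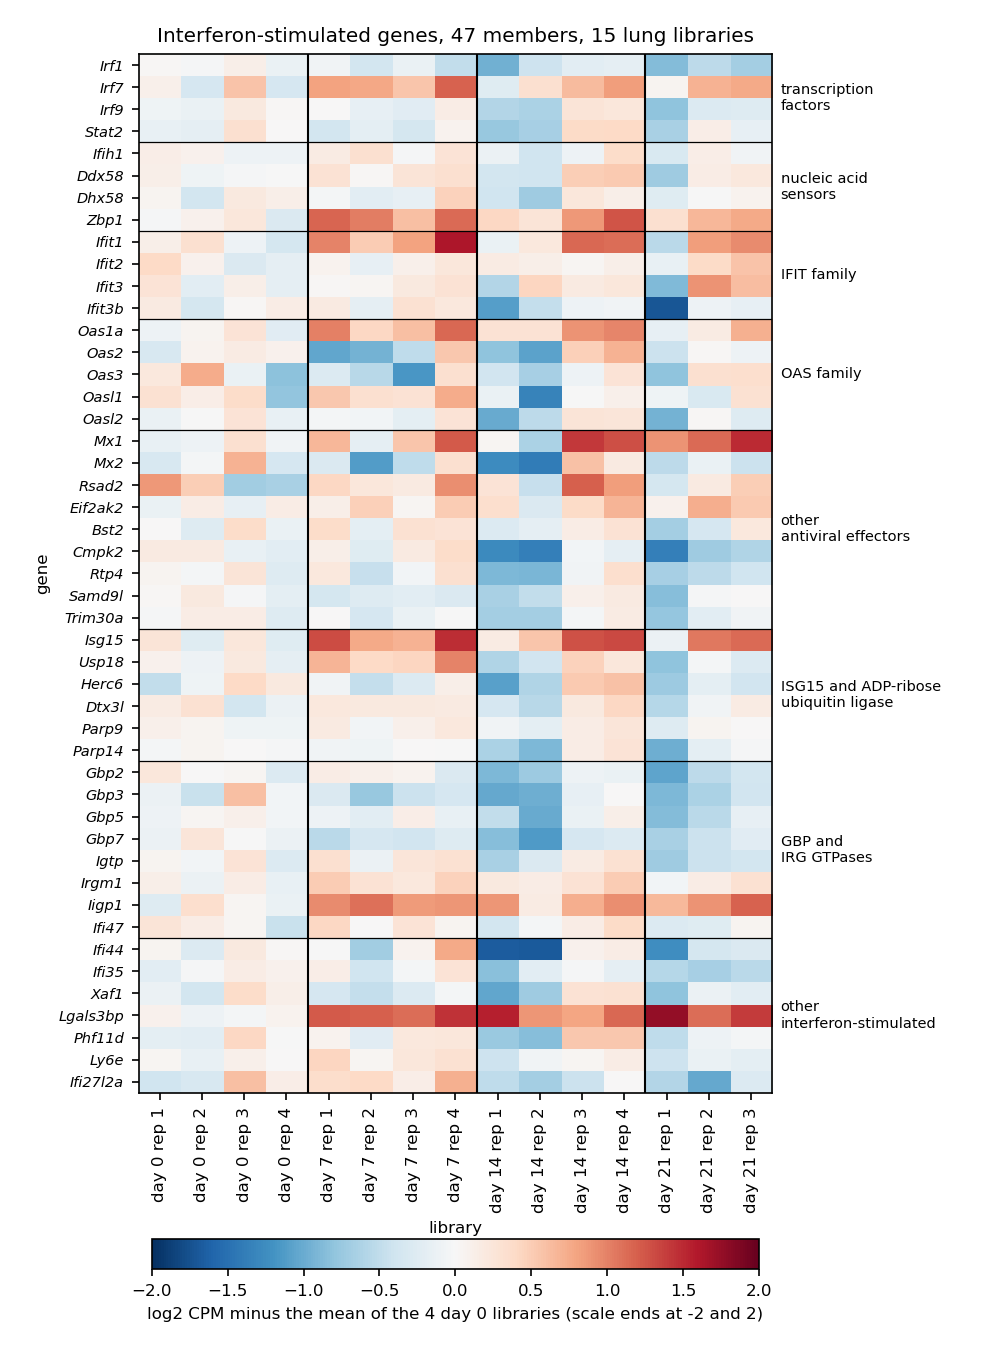
Log2 CPM of the 47 members (rows, grouped by role) in 15 libraries (columns, by day), each relative to the gene's mean over the 4 day 0 libraries. Red is above and blue below day 0, and the columns of day 14 replicates 1 and 2 and day 21 replicate 1 are mostly blue apart from Lgals3bp, Iigp1 and a few more.

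The members varied more between libraries of the same day at day 14 and day 21 than before. The median SD of log2 CPM over the members was 0.22, 0.21, 0.45 and 0.35 at days 0, 7, 14 and 21, whereas that over all genes was 0.24, 0.20, 0.28 and 0.25. The median member lay at −0.50, −0.50, 0.18 and 0.28 on the log2 scale relative to day 0 in day 14 replicates 1 to 4, and at −0.58, −0.07 and −0.04 in day 21 replicates 1 to 3. At day 7 the 4 values were 0.15, −0.12, 0.13 and 0.30. The median over all genes stayed between −0.002 and 0.05 in these 11 libraries.

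At day 0, replicate 4, the library with the deviating label, was lowest for 20 members (42.6%), against 22.2% of all genes. It was highest for 0 members, against 20.3% of all genes. Replicate 3 of day 0 was highest for 26 members (55.3%), against 31%. At day 7, replicate 2 was lowest for 25 members (53.2%), against 28.8%, and replicate 4 highest for 30 (63.8%), against 27%. Day 21 replicate 1 was the lowest of its group for 43 of 47 members (91.5%), against 34% of all genes. At day 14, replicate 1 was lowest for 20 members and replicate 2 for 25, together all but 2, while each was lowest for 29.4 and 27.5% of all genes. Replicate 4 was highest for 32 members (68.1%), against 20.5% of all genes. Lgals3bp went against this order and was highest in day 14 replicate 1 and day 21 replicate 1, the only member that was highest in the latter.

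**Figure D4:**
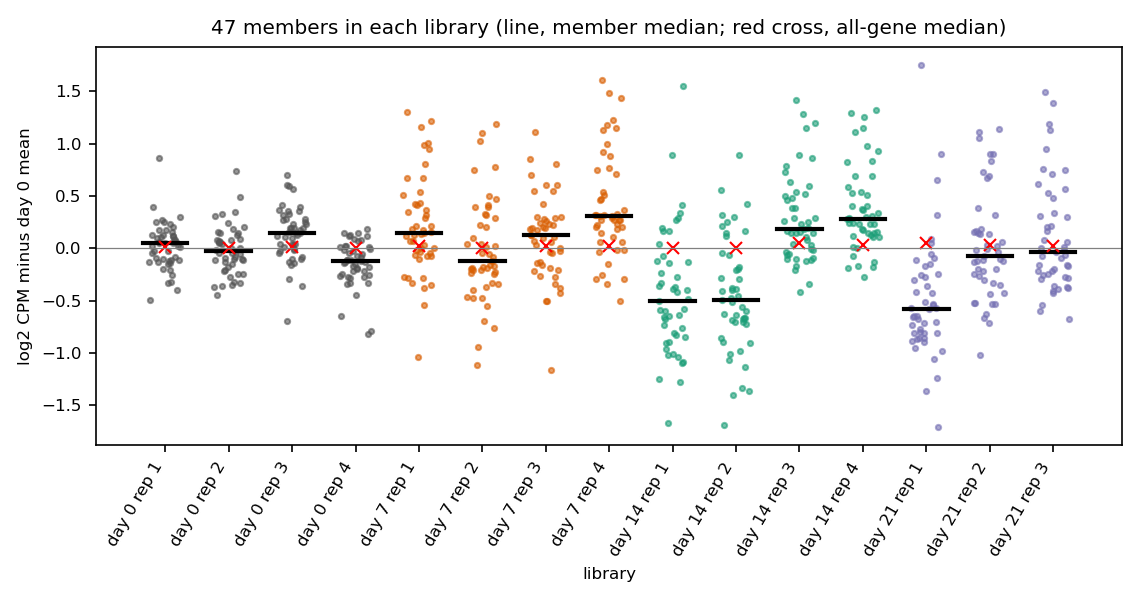
Log2 CPM relative to the day 0 mean (vertical axis) of the 47 members in each library (horizontal axis), with the member median as a line and the median of all genes as a red cross. The member medians of day 14 replicates 1 and 2 and day 21 replicate 1 lie at −0.50, −0.50 and −0.58 while the crosses stay near 0.

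Marker levels of cell types also differed between these libraries. The 6 epithelial markers summed to 13510, 27170, 19770 and 26740 CPM in day 14 replicates 1 to 4 and to 9990, 14170 and 9638 CPM in day 21 replicates 1 to 3. In the same order, the 5 endothelial markers summed to 1322, 1878, 2263 and 1800 CPM and to 1657, 2028 and 1759 CPM. Summed over 7 alveolar macrophage markers, day 14 replicates 1 to 4 held 1895, 3407, 971 and 893 CPM and day 21 replicates 1 to 3 held 2395, 1154 and 1543 CPM. These sums were mostly Chil3, at 1777, 2850, 843 and 776 CPM at day 14 and 2269, 1080 and 1408 CPM at day 21, which was not called. Ear1, Krt79 and Fabp1 of the same list were called lower at all 3 times, and Marco higher at day 14. Marco measured 49.0, 434, 37.9 and 21.1 CPM there, so that replicate 2 stood far above the others, and the group overlapped with day 0. The recruited monocyte and macrophage markers summed to 1384, 755, 602 and 738 CPM at day 14 and to 1058, 659 and 1006 CPM at day 21. The 5 natural killer cell markers summed to 3.01, 5.74, 15.7 and 18.1 CPM at day 14 and to 3.34, 3.31 and 8.18 CPM at day 21, after 25.2 to 73.4 CPM at day 0, and all 5 were called lower at both days. The 5 B cell markers, all called lower at both days, summed to 16.5, 19.4, 68.4 and 56.8 CPM at day 14 and to 23.7 to 30.8 CPM at day 21.

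The 5 T cell markers summed to between 9.23 and 24.3 CPM at these days, with 1 called lower at day 14. The 6 neutrophil markers summed to 390.0 to 866 CPM at day 0, 86.5 to 252 CPM at day 7, 132, 279, 437 and 124 CPM in day 14 replicates 1 to 4, and 74.1 to 157 CPM at day 21, with 4, 2 and 5 of the 6 called lower at days 7, 14 and 21. Day 14 replicate 3 lay within the day 0 range. The 6 plasmacytoid dendritic cell markers summed to between 163 and 289 CPM in all libraries, most of it from Tcf4, with Runx2 called higher at day 14 and day 21, Siglech, a defining marker, called lower at day 21, and Klk1 at 0 in all day 21 libraries. Of all markers listed, Klk1 was the only one at 0 in a whole group. The part of any of these cell types in the values of the members was not tested.

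Of 21 listed interferon genes, 17, among them Ifnb1, were not analysed here. The other 4 had few reads and did not pass the filter. Ifng, which encodes interferon gamma, had between 0 and 4 reads in every library, and Ifna1, Ifnk and Ifnz had at most 1, 3 and 7. Changes in these genes were not detectable at this depth.

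Of the 6 receptor chains on the pathway list, 1 was called higher at day 7, 1 at day 14 and none at day 21, and none was called lower. Ifngr2, a chain of the interferon gamma receptor, was called higher at day 7 and day 14, with log2 fold changes of 0.65 (adjusted p = 0.00276) and 0.81 (adjusted p = 0.000266), and had 0.58 at day 21, just within a fold change of 1.5. The day 7 value came to 0.53 without day 7 replicate 1 and to 0.54 with a mitochondrial term. With libraries of a mitochondrial share under 2.5% it came to 0.58. The day 7 call was lost in each of these fits, where the fold change stayed within 1.5. The chains Ifnar1, Ifnar2 and Ifngr1 were called at no day, with log2 fold changes between −0.41 and 0.27. The lowest value was that of Ifngr1 at day 14 (adjusted p = 0.0111), where every library lay below day 0 but the fold change stayed within 1.5. The receptor kinase Jak2 had 0.32, 0.22 and 0.28 (adjusted p = 0.0136, 0.0657 and 0.0304), all within a fold change of 1.5, and Jak1 and Tyk2 lay between −0.19 and 0.22 without passing the test. Irf5, a factor for inflammatory cytokines in macrophages, was called higher at all 3 times (0.93, 0.86 and 0.81).

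Of the 53 genes of the pathway list 31 were tested, 4 were under the filter and the rest were not analysed here. Of the 31 tested, 6 were called higher at day 7, 8 at day 14 and 5 at day 21, and none lower. Of all genes, 8.78, 12 and 12.4% were called higher and 7.36, 11.2 and 10.1% lower. The list's share called higher was above that of all genes at each time. At an unadjusted p under 0.05, 12, 14 and 9 of the 31 were higher and 4, 3 and 5 lower. Of all genes, 38.2, 43.3 and 40.5% passed it in either direction. The median log2 fold change was 0.23, 0.20 and 0.17, against 0.01, 0.02 and 0.02 over all genes. Tmem173, the STING adaptor of cytosolic DNA sensing, was the most changed upstream gene. It measured between 17.0 and 22.3 CPM at day 0 and between 44.3 and 59.3 CPM in all later libraries, with log2 fold changes of 1.51, 1.56 and 1.37 and no overlap. Cgas, the DNA sensor upstream of it, was called higher at day 7 and day 14 (0.80 and 0.89). The Cgas call at day 7 was lost without day 0 replicate 2 or 4 and with a mitochondrial term (adjusted p = 0.0548). That at day 14 was lost with libraries of a mitochondrial share over 3.5% (adjusted p = 0.103). The RNA sensor Tlr7 (0.90 and 1.18) and the kinase Ikbke (0.75 and 0.75) were called higher at day 14 and day 21. The Tlr7 call was lost without day 0 replicate 3 or 4 or day 14 replicate 1 at day 14, and without day 21 replicate 1 at day 21. The Ikbke call at day 14 was lost with libraries of a mitochondrial share over 3.5% (adjusted p = 0.0777).

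Socs3, an inhibitor of JAK signalling, was called higher at all 3 times (1.21, 1.39 and 1.77). Socs1, which inhibits the same kinases, was called higher at day 7 and day 14 (1.44 and 0.87). The day 14 call of Socs1 was lost without day 0 replicate 2, 3 or 4 or day 14 replicate 2, 3 or 4. Its day 7 call was lost with libraries of a mitochondrial share under 2.5% (1.09, adjusted p = 0.0585).

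A further list of 82 genes known to respond to interferon, of which 78 were tested, had 9 called higher and 7 lower at day 7, 8 and 14 at day 14, and 6 and 15 at day 21. Of all genes, 8.78 and 7.36%, 12 and 11.2%, and 12.4 and 10.1% were called higher and lower at these times. The list's share called higher was above that of all genes at day 7 and below it at days 14 and 21. Its share called lower was above that of all genes at each time. The list's median log2 fold changes were −0.11, −0.17 and −0.32, against 0.01, 0.02 and 0.02 over all genes. Cxcl9 and Cxcl10, chemokines of that list induced by interferon gamma, rose while most of the list was not called. Cxcl10 measured 1.88, 1.69, 2.16 and 1.40 CPM at day 0, 17.4, 14.7, 14.1 and 11.1 CPM at day 7, 6.56, 5.61, 9.78 and 8.27 CPM at day 14, and 3.90, 4.16 and 13.3 CPM at day 21. No later library overlapped with day 0, and the log2 fold changes were 3.01, 2.09 and 2.00. Those of Cxcl9 were 3.51, 2.27 and 2.42. Without day 21 replicate 3, the day 21 values came to 1.14 for Cxcl10 and 1.26 for Cxcl9, both still called.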

How the data were processed

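Whole-lung RNA was sequenced in 15 libraries, grouped by their titles into day 0, 7, 14 and 21. Per the labels and the study's methods, the authors trimmed reads, aligned them to GRCm38 with HISAT2 2.1.0, excluded multi-mapped reads and deposited raw gene counts from HTSeq 0.6.0. The annotation release and strand setting are not given in the sources used here. Symbols, positions and exon lengths came from GENCODE M21, which matched 33267 of 33340 genes.

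Counts were normalised by TMM, filtered with filterByExpr and fitted in 1 edgeR 4.0.16 quasi-likelihood model (R 4.3.3) over all 15 libraries. Calls used the study's thresholds for mouse data, 1.5 for the fold change and 0.05 for the adjusted p. CPM are on TMM-adjusted library sizes, and log2 CPM used a prior count of 2. The fit was also run on simulated counts, and the outcome is not reported here. No pair of libraries of the same day agreed within sampling noise, and pairs across days were not checked. Alternatives used DESeq2 1.42.0, limma 3.58.1 and other scalings, filters and subsets of libraries. The members and gene lists were chosen with earlier results of these data known. Values per library are given for 20 representatives fixed by name, for up to 4 members called each way with the largest change per comparison, and for Oas1a.

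Same-numbered libraries of different days were not paired. Their deviations from the group means correlated between −0.24 and 0.40 over 21 pairs of libraries, with a median of 0.04, and 8 of the 21 were over 0.1. Over the 63 pairs with different numbers the correlations ran from −0.33 to 0.26, with a median of −0.03, and 13 were over 0.1. The common coefficient of variation between replicates was 22.8% over all genes. A p-value reflects only the spread between libraries, estimated gene by gene. Some genes of the pathway and marker lists are not reported here.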

Additional observations from a re-analysis of the deposited data

Results flagged for a closer look

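Mx1 in day 0 replicate 3, at 5.33 CPM, stood apart from the other 3 day 0 libraries, which lay between 3.82 and 4.02 CPM. The gap to the nearest library was 0.869 of the group's range. It was the single value of 72 gene and day combinations tested for such a gap, and chance alone flags about 5% of groups. Without that library Mx1 was still called higher at day 21.

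The change of Ifi27l2a from day 0 differed between day 7 and day 14 by −0.79 on the log2 scale, by the edgeR contrast of day 14 with day 7. The call was lost without any 1 of the 4 day 7 libraries, without day 14 replicate 1, 2 or 3, and when the mitochondrial share entered the model.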

How the results depend on the processing

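Of 46 calls on single genes, those of members and of other genes together, 24 held under every alternative and none changed direction. Among the members, calls held throughout only for Lgals3bp at days 7, 14 and 21, Iigp1 at days 7 and 21, Zbp1 at day 7 and Irf1 at day 21. Every other member call was lost in at least 1 alternative. Neither DESeq2 nor another scaling removed a call. DESeq2 called 8 members higher at day 7, where edgeR called 7, and 6 lower at day 21, where edgeR called 4. The number of members called higher at day 7 was 4 with the mitochondrial share as a model term. At day 14, 3 members were called higher with limma voom and 3 with libraries of a mitochondrial share over 3.5%, and 2 were called lower with voom, 2 without the fold threshold and 0 with those libraries. No member was called lower from day 7 to day 14 with that term. The cause of these differences was not tested. Leaving out 1 library gave 3 to 7 members higher at day 7, 2 to 6 higher and 0 to 2 lower at day 14, 2 to 4 higher and 2 to 7 lower at day 21, and 0 to 1 lower from day 7 to day 14. The members' median log2 fold change then ran from 0.04 to 0.16 at day 7, −0.25 to 0.03 at day 14 and −0.36 to −0.09 at day 21.

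With the replicate number as a block, 7 members were higher and 0 lower at day 7, 5 and 1 at day 14, and 3 and 3 at day 21, where Ifi35 came under the fold threshold (log2 fold change −0.54). Oas2 came to −0.15 at day 14 and 0.0409 at day 21 with the block, both uncalled. The block removed no other call.

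Log2 fold changes that changed sign were all uncalled. At day 7, Stat2 came to 0.0810, Rsad2 to −0.0078 and Tlr7 to −0.0534 with the mitochondrial term, and Rsad2 to −0.24, Cmpk2 to −0.0719 and Gbp2 to −0.12 with libraries of a mitochondrial share under 2.5%. Gbp2 at day 7 came to −0.0222 with DESeq2, −0.0248 with RLE factors, −0.0119 unfiltered, −0.0314 with genes averaging 1 CPM or more and −0.0232 when the groups compared were fitted alone. For Ifi35 at day 7 these settings gave −0.0182, −0.0208, −0.0092, −0.0291 and −0.0230, total count scaling −0.0004 and voom −0.0126. For Oas2 at day 14 they gave −0.0083, −0.0073, −0.0151, −0.0200 and −0.0186, voom −0.17 and the mitochondrial term −0.0886. At day 14, libraries over 3.5% gave 0.11 for Usp18 and 0.0474 for Igtp. At day 21, Rsad2 came to 0.12 with voom and 0.11 with the mitochondrial term.

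Leaving out 1 library, the values at day 7 ran from −0.10 to 0.0929 for Gbp2 and −0.0911 to 0.12 for Ifi35. At day 14 they ran from −0.11 to 0.11 for Bst2, −0.0247 to 0.25 for Ddx58, −0.0459 to 0.25 for Ifit3, −0.23 to 0.0519 for Igtp, −0.14 to 0.0146 for Ly6e, −0.31 to 0.22 for Oas2, −0.0373 to 0.0864 for Parp9, −0.26 to 0.0861 for Stat2 and −0.22 to 0.12 for Usp18. At day 21 they ran from −0.26 to 0.15 for Ddx58, −0.0431 to 0.43 for Oas1a and −0.26 to 0.29 for Rsad2. At 15652008 counts or more per library, the interferon genes stayed under the filter.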
